A study of Mus musculus with 3186 samples.

Results

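Among 257 brain cells sorted from Pdgfra-H2BGFP mice, 85 carried at least 50 CPM (reads of a gene scaled to the cell's total) of at least 2 of the 4 matrix genes Col1a1, Col1a2, Dcn and Lum, and these fibroblast-type cells were split by Moxd1 and Coch. The members were thus chosen by their measured RNA of these genes. The cells with Moxd1 or Coch at 50 CPM or more, called Moxd1/Coch-positive here, numbered 53. The cells with both genes under 5 CPM, called negative, numbered 28. The remaining 4 gated cells lay in between and entered neither side, so 81 of the 3186 cells of the series are described. All 6 genes of this rule were read from the same counts as every other gene, so the differences in them are given as a description and support nothing.

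The mice were C57BL/6 adults 12 to 15 weeks old, and the tissue was brain. Cells were sorted by reporter fluorescence into plates of 384 wells and sequenced with the SMART-seq2 protocol, which reads full-length transcripts without molecular tags. In the Pdgfra-H2BGFP line a nuclear green fluorescent protein follows Pdgfra, and the labels say that it marks a perivascular population as well as cells of the oligodendrocyte lineage. The other lines of the series, Cldn5(BAC)eGFP for endothelium and Pdgfrb(BAC)eGFP/NG2dsRed for mural cells, serve here only as a reference. The labels name no animal, so the Pdgfra-H2BGFP line counts as 1 sample, cells are not replicates, and no test between the sides was possible. The comparisons below give sizes only, and their intervals (95%, exact) cover counting error alone.

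Fibroblasts of the brain lie in the meninges and along the larger vessels, in the space between the vessel wall and the surrounding astrocyte endfeet, and they produce collagens, small proteoglycans and other matrix. Moxd1 encodes a protein of the copper-dependent monooxygenase family that includes dopamine beta-hydroxylase. Coch encodes cochlin, a secreted matrix protein with von Willebrand factor A domains that is best known from the inner ear.

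Moxd1 lies on chromosome 10 from 24223517 to 24302790 and Coch on chromosome 12 from 51593341 to 51605771, both on the plus strand of mm10 and both protein coding. The 250 bases before their RefSeq start sites are shown because these are the genes that divide the cells, and those of Tcf21 because it has the largest ratio between the sides among the listed mesenchymal transcription factors. The sequences are RefSeq's for GRCm38.p6, 5′ to 3′ on each gene's strand (Moxd1 at chr10:24223267-24223516 plus, Coch at chr12:51593091-51593340 plus, Tcf21 at chr10:22820144-22820393 minus), and capitals mark a match to AGATAA, the core that GATA factors bind.
Moxd1: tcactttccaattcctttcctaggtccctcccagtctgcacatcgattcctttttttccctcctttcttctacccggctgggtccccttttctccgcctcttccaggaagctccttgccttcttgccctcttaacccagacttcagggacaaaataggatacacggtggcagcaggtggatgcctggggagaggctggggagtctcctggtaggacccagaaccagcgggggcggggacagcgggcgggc
Coch: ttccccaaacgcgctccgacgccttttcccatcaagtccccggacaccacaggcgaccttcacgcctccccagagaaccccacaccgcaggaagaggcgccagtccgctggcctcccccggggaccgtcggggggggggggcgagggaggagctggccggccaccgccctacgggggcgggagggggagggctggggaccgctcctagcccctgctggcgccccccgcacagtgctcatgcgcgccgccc
Tcf21: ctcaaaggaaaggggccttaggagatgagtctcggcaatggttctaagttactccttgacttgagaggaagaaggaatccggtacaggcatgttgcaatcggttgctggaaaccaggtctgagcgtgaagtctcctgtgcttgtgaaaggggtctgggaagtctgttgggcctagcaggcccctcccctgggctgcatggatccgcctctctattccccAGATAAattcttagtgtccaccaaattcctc

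The GC content of these windows was 58.4% for Moxd1, 74.8% for Coch and 52.4% for Tcf21, beside a median of 52.4% over all windows of the same length. AGATAA, the forkhead motif GTAAACA and the E-box CAGCTG were searched on both strands. None of these letters occurred in the Moxd1 and Coch windows. The Tcf21 window held AGATAA alone, which occurs in 9.99% of 32851 windows, while GTAAACA occurs in 3.17% and CAGCTG in 13%. RefSeq and GENCODE place the start of Tcf21 differently: the GENCODE gene starts at 22820174, so 31 bases of this window, among them the AGATAA at 22820169 to 22820174, lie inside that gene model. A match describes the letters of the window and shows no binding.

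Reads per cell followed the plate. Positive cells held 110806 to 1483309 reads (median 810348) and negative cells 101545 to 1606954 (median 339436). Of the positive cells 42 lay on plate Pdgfra1 and 11 on plate Pdgfra2, against 13 and 15 of the negative cells. On Pdgfra1 the median was 921432 reads in positive and 782250 in negative cells, and on Pdgfra2 it was 173163 and 166473, so within a plate both sides were read to a similar depth. Positive cells had a median of 4544 genes with a read and negative cells 3212, and after thinning every cell to 100000 reads these medians were 3828 and 2720. Within Pdgfra1 the thinned medians were 4134 and 3081, and within Pdgfra2 they were 2392 and 2313. Since the sides take unequal shares of the plates, plate values stand beside the main results.

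The values that chose the members were far apart. Moxd1 ran from 0 to 16242 CPM in positive cells (median 3907), with 50 of 53 cells at 50 CPM or more. Coch ran from 0 to 26928 CPM (median 1923), with 42 cells at 50 CPM or more. Both genes passed in 39 cells, Moxd1 alone in 11 and Coch alone in 3, so most positive cells carried the pair. The 3 positive cells nearest the threshold had 58.99, 94.70 and 182.6 CPM of their higher gene, and the 4 cells in between had 7.285 to 38.32 CPM. The highest value of either gene in a negative cell was 4.773 CPM, and 18 of the 28 had no read of either gene. Levels also differed by plate: the median of Moxd1 was 4886 CPM in positive cells on Pdgfra1 and 226.0 CPM on Pdgfra2, and that of Coch was 2506 and 297.8 CPM. Cells with both genes made up 34 of the 42 positive cells on Pdgfra1 and 5 of the 11 on Pdgfra2, and all 3 cells with Coch alone lay on Pdgfra2.

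**Figure D1:**
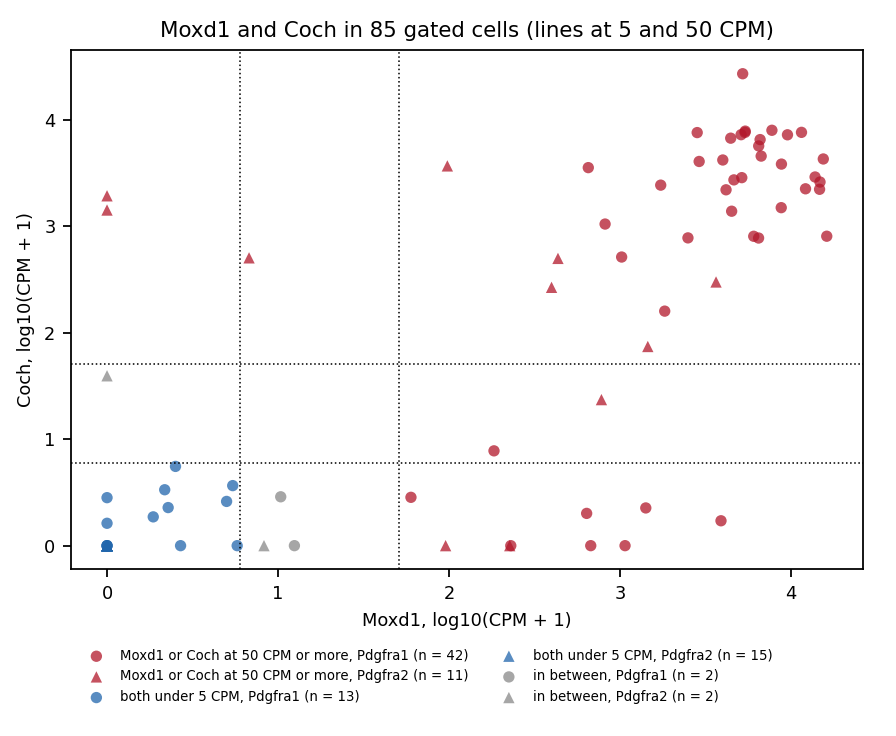
Moxd1 (horizontal) against Coch (vertical) in the 85 gated cells, each as log10(CPM + 1), with colour for side and symbol shape for plate; dotted lines stand at 5 and 50 CPM. The 39 cells with both genes fill the upper right, and the 28 negative cells sit at the lower left, 18 of them at 0 for both genes.

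Outside these gated cells the pair was rare. In the same line, 3 of the 172 cells outside the gate had either gene at 50 CPM or more (1.74%, exact binomial interval 0.361 to 5.01%), against 53 of 85 inside it. Among Pdgfrb(BAC)eGFP/NG2dsRed cells 1 of 63 that met the matrix gate did so, as did 8 of 1421 outside it (0.563%). In the Cldn5(BAC)eGFP line 7 of 1444 cells outside the gate did (0.485%).

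The fibroblast label was checked against 12 markers. Their summed level had a median of 3333 CPM in positive cells (0 to 18952) and 10060 CPM in negative cells (274.3 to 28204), against a median of 0 in the cells of the line outside the gate. None of the 12 was at least 2-fold higher in positive cells and 7 (58.3%) were at least 2-fold lower, beside 27.3% and 19.3% of all genes. With both plates asked 3 were lower. The median of the 12 log2 ratios was -1.37, with -1.39 on Pdgfra1 and -1.41 on Pdgfra2. Of the 12, Slc6a13 and Igf2 are also among the genes described below as lower in positive cells. Pdgfra itself, the growth factor receptor gene behind the reporter, was similar in the summed reads, at 278 CPM in positive and 264 CPM in negative cells, and 32 of 53 and 13 of 28 cells reached 50 CPM. On Pdgfra2 its log2 ratio was -3.05. Of the gate genes, which the rule used, Lum was level (6080 and 5873 CPM), whereas Dcn was 10356 CPM in positive and 34230 CPM in negative cells, a difference that came from Pdgfra1 (log2 ratio -1.97, against -0.12 on Pdgfra2).

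Pericyte markers were higher on the positive side in the summed counts. Values without the wells that carried them stand beside several of the list counts below. Of 12 markers of pericytes, the mural cells of capillaries, 9 (75.0%) were at least 2-fold higher in positive cells and none lower. These shares stand beside 27.3% and 19.3% of all genes. With both plates asked 4 were higher. The median of the 12 log2 ratios was 3.13, with 3.90 on Pdgfra1 and 0.93 on Pdgfra2. The summed level of the 12 markers had a median of 1473 CPM in positive cells (73.64 to 22990) and 785.5 CPM in negative cells (0 to 3360), beside a median of 31288 CPM in the mural line. Rgs5, a regulator of G protein signalling that marks pericytes, was read at 837 CPM in the summed positive cells but at 50 CPM or more in only 11 of the 53, with a median of 0, and it had no read in any negative cell. Abcc9, the sulfonylurea receptor subunit of a potassium channel, reached 50 CPM in 31 positive cells and 1 negative cell, and all of these lay on Pdgfra1. In 12 positive wells and 1 negative well the pericyte sum reached 10% of the median of the mural line. Without these wells, Abcc9 (log2 ratio 4.14), Rgs5 (3.45) and P2ry14 (2.58) were at least 2-fold higher in positive cells. Kcnj8 (-1.47), Atp13a5 (-3.29) and Ndufa4l2 (-1.42) were at least 2-fold lower, and the other pericyte markers were within 2-fold.

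Markers of further cell types were read in both sides. Oligodendrocyte markers had a median sum of 378.5 CPM in positive and 150.0 CPM in negative cells, beside 123997 CPM in the cells outside the gate, and no well reached 10% of that. Endothelial markers had a median sum of 200.5 CPM in positive and 20.91 CPM in negative cells (248.5 and 3.898 CPM on Pdgfra1, 0 and 123.0 CPM on Pdgfra2), and reached 10% of the median of the endothelial line in 1 well of each side. Microglia and perivascular macrophage markers summed to 1000 CPM or more in 3 positive and 4 negative wells, up to 23577 CPM in a negative one. Of 12 markers of the arachnoid barrier and dura, 3 of which (Alpl, Ptgds and Slc22a6) are also among the genes described below, the sum had a median of 2912 CPM in positive cells (8.527 to 74764) and 4378 CPM in negative cells (9.092 to 250743). These medians were ordered otherwise on each plate, at 3253 and 1071 CPM on Pdgfra1 and 2846 and 15534 CPM on Pdgfra2. In all, 16 positive and 5 negative wells carried pericyte, endothelial, microglia or macrophage markers at the stated limits. What part these had in the ratios was not tested beyond leaving the wells out.

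For the comparison of the sides, the counts of each side were summed, scaled to CPM and compared as a log2 ratio of positive over negative with 1 CPM added to each. A total of 11573 genes had at least 5 CPM on either side. At least 2-fold higher in positive cells were 3155 of them (27.3%), and 2236 (19.3%) were at least 2-fold lower. With the same asked of both plates, 1273 (11%) and 788 (6.81%) remained. The median log2 ratio over all genes was 0.12. These shares are the background for every count of genes that follows. The genes described in full are the 15 with the largest ratio in each direction among those read in most cells of the higher side and at least 2-fold different on both plates, so their accord between plates follows from the choice.

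Genes higher in Moxd1/Coch-positive cells were led by Alpl, the tissue-nonspecific alkaline phosphatase that strips phosphate at cell surfaces. It ran from 0 to 9098 CPM in positive cells (median 1042) and from 0 to 7.078 CPM in negative cells (median 0). It reached 50 CPM in 38 of 53 positive cells (71.7%, 57.7 to 83.2%) and in none of 28 negative cells, which allows a share of up to 12.3% by the exact interval. The groups overlapped only through positive cells with little or no Alpl, of which 8 had no read. Summed over cells, Alpl was 2742 CPM (2726 to 2758) against 0.784 CPM (0.391 to 1.403), a log2 ratio of 10.59, with 10.54 on Pdgfra1 and 9.77 on Pdgfra2. The endothelial line held 366 CPM of Alpl and the mural line 33.7 CPM.

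Among the genes named as higher were secreted growth factors and surface receptors. Pgf, the placental growth factor that binds the receptor Flt1, ran from 0 to 4299 CPM in positive cells (median 174.4) and had no read in any negative cell. Against a floor of 3 reads over all negative cells, it was at least 1443-fold higher, and 29 positive cells reached 50 CPM. Hgf, the hepatocyte growth factor, ran from 0 to 1312 CPM (median 19.90), with 21 positive cells at 50 CPM and a highest value of 1.949 CPM among negative cells. On Pdgfra2 the Hgf reads of positive cells came from the cell with 1312 CPM alone, so its ratio on that plate rests on that cell. Bambi, a decoy receptor that dampens signalling by the TGF-beta family, ran from 0 to 1290 CPM (median 72.70), with 29 positive cells and no negative cell at 50 CPM. Mertk, a receptor kinase used in the uptake of dying cells, reached 50 CPM in 23 positive cells and no negative cell (log2 ratio 6.25), 22 of them on Pdgfra1. Without the wells that carried pericyte markers the log2 ratios were 8.33 for Pgf, 7.40 for Hgf, 7.57 for Bambi and 6.01 for Mertk. All of these genes were at 0 in many positive cells, so each was carried by a share of that side.

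Transcription factors also separated the sides. Gata6, a zinc finger factor of mesoderm and endoderm, ran from 0 to 1104 CPM in positive cells (median 34.12) and from 0 to 1.278 CPM in negative cells, with 26 and 0 cells at 50 CPM. Foxf2, a forkhead factor of brain mural cells and other mesenchyme, ran from 0 to 1435 CPM (median 67.07) and from 0 to 156.0 CPM (median 0), with 29 and 2 cells at 50 CPM. Nr1h4, the bile acid receptor FXR, had 25 and 0 cells at 50 CPM and a log2 ratio of 7.37. Foxf2 was also read in the mural line (252 CPM) and the endothelial line (354 CPM), while Gata6 was near 0 in both (0.0260 and 1.44 CPM).

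Tcf21, a helix-loop-helix factor of fibroblast and epicardial lineages, behaved differently on the plates. It ran from 0 to 1950 CPM in positive cells (median 126.5) and from 0 to 4.773 CPM in negative cells, and its log2 ratio was 8.42. All 30 positive cells at 50 CPM lay on Pdgfra1, and none of the 11 positive cells on Pdgfra2 reached that level. On Pdgfra2 the summed level was 0.389 CPM in positive cells and 0 in negative cells. Plate, depth and any difference in the cells sorted onto it cannot be told apart here.

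Emcn encodes endomucin, a surface sialomucin known from venous and capillary endothelium, and reached 50 CPM in more positive cells than any other of the 15 genes described in full as higher. It ran from 0 to 5718 CPM in positive cells (median 1169) and from 0 to 1656 CPM in negative cells (median 0). A total of 42 positive cells (79.2%, 65.9 to 89.2%) and 3 negative cells (10.7%, 2.27 to 28.2%) reached 50 CPM. The log2 ratio was 6.33, with 7.76 on Pdgfra1 and 2.86 on Pdgfra2. The endothelial line held 1427 CPM of Emcn, and the endothelial marker sum given above was higher in positive cells. Without the 1 well on each side that carried endothelial markers at the stated limit, the log2 ratio was 7.57. Without the wells that carried pericyte markers it was 6.14. Wells with endothelial markers below the limit were kept, and what part endothelial RNA had in the Emcn reads was not tested.

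The other genes of this group have roles that differ widely. Emb, a surface glycoprotein of the immunoglobulin superfamily, had a log2 ratio of 8.50 with 23 and 0 cells at 50 CPM. Hpca (hippocalcin, a calcium sensor known from neurons) had 7.07, with 30 and 1 cells. Fndc5, the precursor of irisin, had 6.83, with 26 and 1 cells. Rgs7bp, which anchors regulators of G protein signalling at the membrane, had 5.56 with 29 and 1 cells. Lphn2, an adhesion G protein-coupled receptor, had 4.89 with 16 and 1 cells, and Pfn2, an actin-binding profilin, had 4.88 with 26 and 2 cells. In each of these 6 genes the median over negative cells was 0, and at most 2 negative cells passed 50 CPM.

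**Figure D2:**
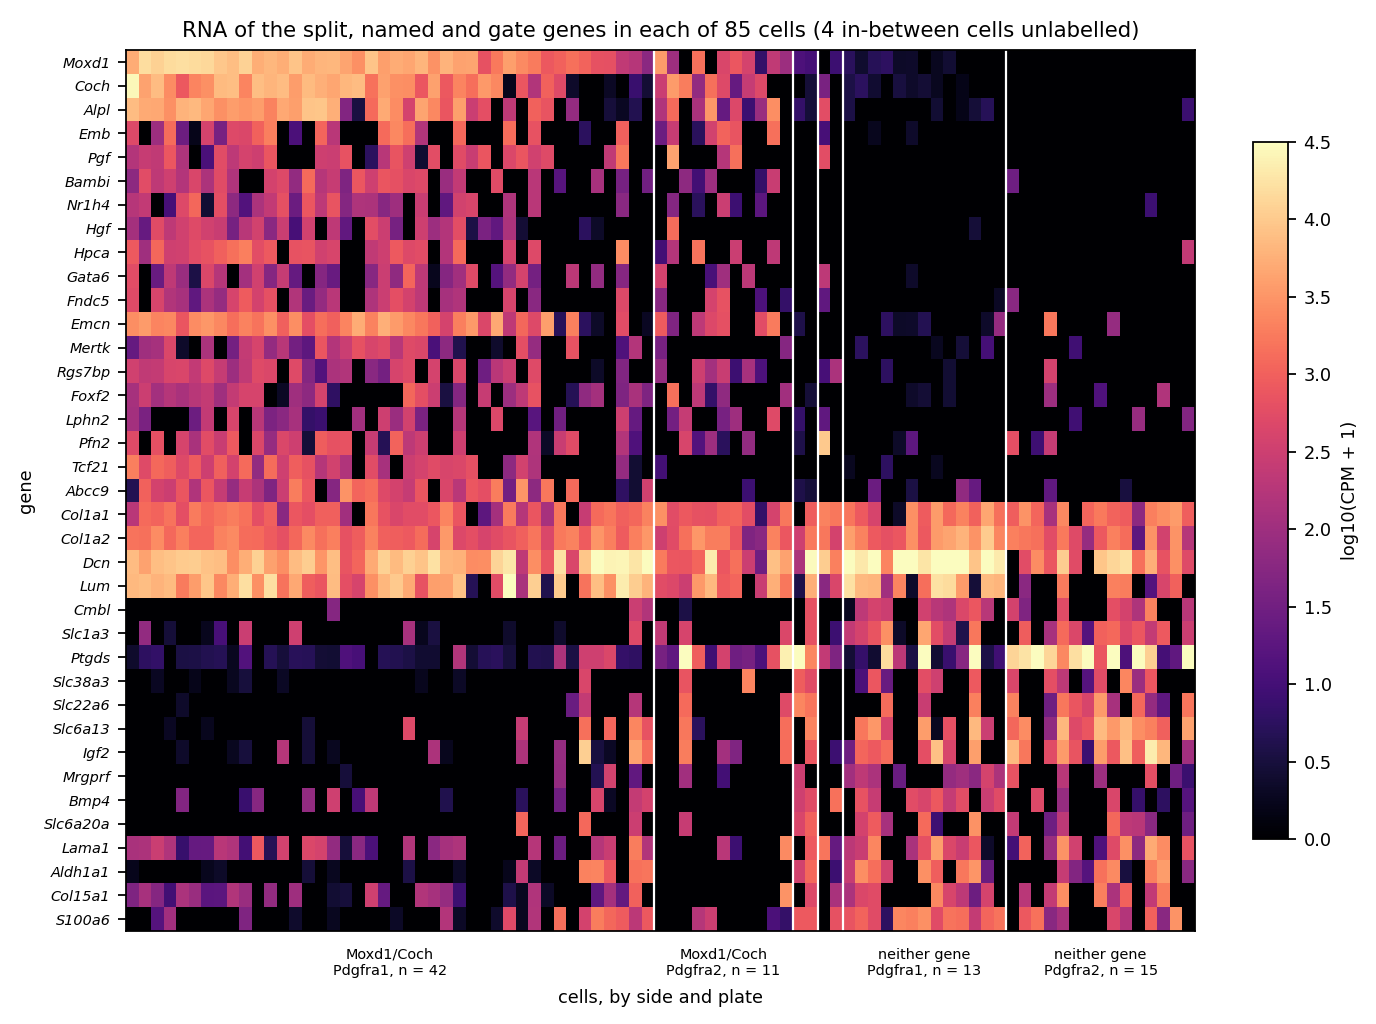
Each column is 1 of the 85 gated cells, ordered by side and plate, each row a gene, and colour gives log10(CPM + 1). The genes named as higher light up in part of the positive cells and are dark in nearly all of the 28 negative cells, and the genes named as lower show the opposite, with exceptions on the positive side.

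Genes lower in positive cells, and thus higher in negative ones, were led by transporters and enzymes. Slc6a13, the GABA and taurine transporter GAT2, ran from 0 to 7303 CPM in negative cells (median 855.5) and from 0 to 2317 CPM in positive cells (median 0). It reached 50 CPM in 20 of 28 negative cells (71.4%, 51.3 to 86.8%) and in 8 of 53 positive cells (15.1%, 6.75 to 27.6%). Summed, it was 1552 CPM (1532 to 1573) against 120 CPM (116 to 123), a log2 ratio of -3.69, and on the plates -3.32 and -3.31. The arachnoid and dura marker sum given above was higher in negative cells on Pdgfra2 and in positive cells on Pdgfra1. None of the 172 cells of the line outside the gate reached 50 CPM. The ranges of the sides overlapped, and 41 positive and 7 negative cells had no read.

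Other carriers shared this pattern. Slc1a3, the glutamate transporter GLAST, ran from 0 to 4615 CPM in negative cells (median 351.2) and from 0 to 507.3 CPM in positive cells (median 0), with 19 and 8 cells at 50 CPM. Slc38a3, a glutamine transporter, had 11 negative and 3 positive cells at 50 CPM, and Slc22a6, the organic anion transporter OAT1, had 12 and 4. Slc6a20a, which carries proline, had 11 and 4. Slc6a20a was also high in the mural line, at 1360 CPM, although pericyte markers as a list were lower on the negative side in the summed counts.

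Over the list of 58 solute carriers and channels, 48 passed the minimum of 5 CPM. Of these 24 (50.0%) were at least 2-fold lower in positive cells and 6 (12.5%) higher, beside 19.3% and 27.3% of all genes, and the list's median log2 ratio was -1.10 beside 0.12 over all genes. On both plates 12 were lower and 2 higher. The list was chosen with earlier results of these data known. It holds Slc6a13, Slc1a3, Slc22a6 and Slc6a20a, already named above as lower, so its excess of lower members supports nothing further. Further members lower in positive cells were Slc13a3 and Slc13a4, carriers of dicarboxylates and of sulfate, with log2 ratios of -3.49 and -3.42, and Slc22a8, the organic anion transporter OAT3, with -2.49. The members that were higher included Abcc9 (5.37, but -0.52 on Pdgfra2), the efflux pump Abcg2 (2.52) and Kcnj8 (1.74, but -5.96 on Pdgfra2), the pore subunit that pairs with Abcc9. Kcnj8 and Abcc9 are also pericyte markers. Without the wells that carried pericyte markers, the log2 ratio of Abcc9 was 4.14 and that of Kcnj8 was -1.47, and of the list 7 were higher and 23 lower.

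The genes named as lower also included a pair of growth factors, a retinoid enzyme and basement membrane chains. Igf2, an insulin-like growth factor of meninges and choroid plexus, ran from 0 to 21653 CPM in negative cells (median 760.6) and from 0 to 11239 CPM in positive cells (median 0), with 19 and 10 cells at 50 CPM. Bmp4, a ligand of the bone morphogenetic protein family, had 12 negative and 7 positive cells at 50 CPM and a log2 ratio of -2.90. Aldh1a1, which makes retinoic acid, had 14 and 6 cells and -2.71. Lama1, a laminin chain of basement membranes, ran from 0 to 4960 CPM in negative cells (median 278.8) and from 0 to 2521 CPM in positive cells (median 10.84), with 19 and 23 cells at 50 CPM. Col15a1, a basement membrane collagen, had a log2 ratio of -2.66. For Lama1 and Col15a1 the ranges of the sides overlapped widely.

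The remaining genes of the group were Cmbl, a hydrolase, with 16 negative and 3 positive cells at 50 CPM (log2 ratio -4.57), Mrgprf, an orphan receptor, with 12 and 3 cells (-3.05), and S100a6, a calcium-binding protein, with 21 and 13 cells (-2.59). Ptgds, the prostaglandin D synthase of meninges and oligodendrocytes, ran from 1.602 to 249422 CPM in negative cells (median 1564) and from 0 to 70229 CPM in positive cells (median 3.880). It was also common outside the gate, where 157 of 172 cells reached 50 CPM and the summed level was 12338 CPM. Of the 30 genes described in full, Pfn2 was the only other one at 50 CPM in more than 39 of those cells, with 99. The log2 ratio of Ptgds was -4.15, with -6.90 on Pdgfra1 and -2.09 on Pdgfra2. What part RNA from neighbouring oligodendrocytes had in the Ptgds reads was not tested.

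**Figure D3:**
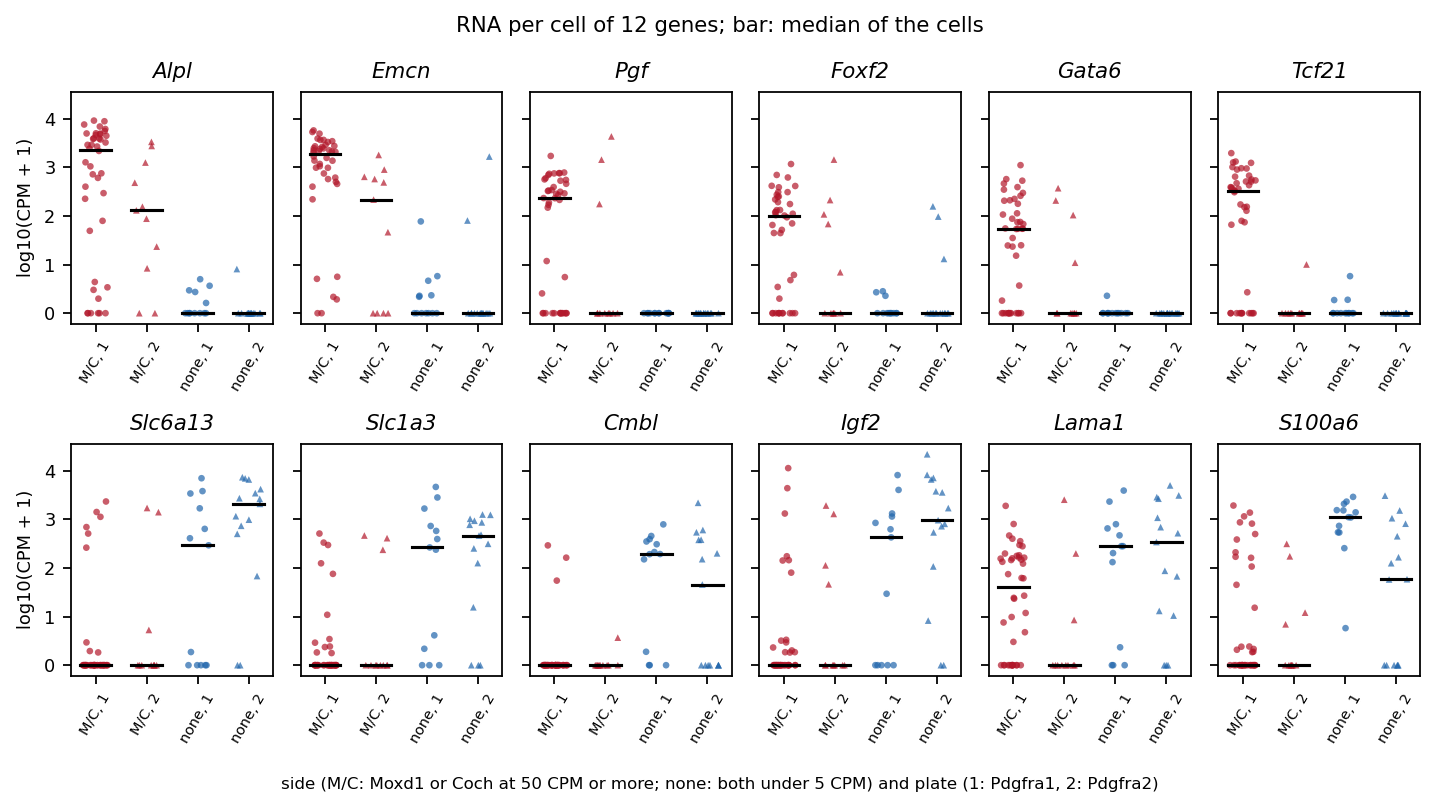
RNA per cell of 12 genes as log10(CPM + 1), split by side (M/C positive, none negative) and plate, with each point 1 cell and a bar at the median. The upper row shows genes higher in positive cells, where Tcf21 has no positive cell at 50 CPM on Pdgfra2, and the lower row shows genes higher in negative cells on both plates.

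Among signalling lists, the Wnt, BMP and TGF-beta pathway held members on both sides. Of 35 that passed the minimum, 12 (34.3%) were at least 2-fold higher in positive cells and 10 (28.6%) lower, beside 27.3% and 19.3% of all genes. The median of their log2 ratios was 0.20. The ligands Bmp2, Bmp4, Bmp6 and Bmp7 were all lower in positive cells. Bmp2 had no read in any positive cell and 73.0 CPM in negative ones, at least 992-fold higher there against the floor of 3 reads, although only 6 negative cells reached 50 CPM. Bmp7 had a log2 ratio of -2.38, with 8 positive and 18 negative cells at 50 CPM, while Bmp5 was level (118 and 120 CPM). On the other side stood the targets of BMP signalling Id1 (1.12), Id2 (3.53) and Id3 (1.26), the BMP-binding protein Bmper (3.68), and the ligands Wnt2 (4.61) and Wnt5b (5.24). Wnt2 was at 50 CPM in 18 positive cells, all on Pdgfra1, and in 1 negative cell.

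Of 52 other growth factors and receptors, 14 were higher and 14 lower (26.9% each), close to the 27.3% of all genes for the higher ones. Beside Hgf, the receptor genes Ednra (endothelin receptor A, 3.92) and Fgfr2 (2.87) were higher in positive cells. Ednra was also read in the mural line (462 CPM), was within 2-fold on Pdgfra2 (0.74) and had 3.15 without the wells that carried pericyte markers. Edn3, the ligand endothelin 3, was lower (-2.22), as were Igf2, the insulin-like growth factor binding proteins Igfbp2 (-1.55) and Igfbp6 (-2.87) and the chemokine Ccl11 (-4.30, with 3 positive and 6 negative cells at 50 CPM). Cxcl12, a chemokine of stromal cells, was read at 3186 and 2485 CPM, within 2-fold.

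Retinoid genes lay on both sides. The synthesising enzymes Aldh1a1 and Aldh1a2 (-1.47, and -0.19 on Pdgfra2), the carrier Rbp4 (-1.89) and the degrading enzyme Cyp26b1 (-5.95) were lower in positive cells, and Cyp26b1 reached 50 CPM in 4 negative cells and no positive one. The receptors Rarb (4.45) and Rxra (3.46) were higher. Rarb reached 50 CPM in 24 positive cells and 1 negative cell, and 6 of the 24 lay on Pdgfra2. Of 19 members above the minimum, 6 (31.6%) were higher and 5 (26.3%) lower, beside 27.3% and 19.3% of all genes. Both numbers were 6 without the wells that carried pericyte markers.

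Matrix lists held members on both sides, with more lower than higher in the summed counts. Over all genes 27.3% were higher and 19.3% lower, and 11% and 6.81% with both plates asked. Of 17 collagens outside the gate, 2 (11.8%) were higher and 7 (41.2%) lower in positive cells, and the median of their log2 ratios was -0.89, with -0.75 on Pdgfra1 and 0.06 on Pdgfra2. Leaving out the wells that carried pericyte markers, 2 were higher and 5 lower. Col14a1, which binds fibrils, was higher (1.90, with 28 positive and 3 negative cells at 50 CPM), and Col3a1 was lower (-1.31). Col6a2 was lower in the sum (-1.81) and level on Pdgfra2 (0.11). Among 34 small proteoglycans and matricellular proteins 7 (20.6%) were higher and 10 (29.4%) lower. But with both plates asked 4 were higher and 2 lower, and the median on Pdgfra2 was 0.35. The higher ones included Postn (periostin, 4.49), with 37 positive and 3 negative cells at 50 CPM, Ccdc80 (3.10), with 44 and 6, the thrombospondin Thbs1 (3.14), with 33 and 4, and Igfbp7 (2.12). Spon1 (-4.82) and Smoc2 (-2.56) were lower but were carried by 6 and 7 negative cells. Bgn, the proteoglycan biglycan, and Sparc, which binds collagen, were within 2-fold.

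Basement membrane genes were lower in 9 of 23 cases (39.1%) and higher in 3 (13.0%), beside 19.3% and 27.3% of all genes. The median of their log2 ratios was -0.42 on Pdgfra1 and -1.16 on Pdgfra2. The lower ones included Col4a1 (-1.01), Lama4 (-1.13), Lamc1 (-1.10) and the proteoglycan perlecan, Hspg2 (-1.53), next to Lama1 and Col15a1, while Lama2 (0.57) and the nidogen Nid1 (-0.32) were within 2-fold. On Pdgfra2 alone Lama4 (0.16) and Hspg2 (-0.01) were level. Elastic fibre genes were lower in 10 of 24 cases (41.7%) and higher in 5 (20.8%), with a median of -0.77 on Pdgfra1 and 0.23 on Pdgfra2. Vtn, vitronectin, was lower (-2.14, with 26 negative and 20 positive cells at 50 CPM), and the mural line held 31550 CPM of it. Emilin1 (1.66) and Ltbp4 (1.45), which attach to elastic fibres, were higher in the sum, but Emilin1 was -0.47 on Pdgfra2. Of 27 metalloproteases and inhibitors, 6 (22.2%) were higher and 10 (37.0%) lower. The higher ones included Mmp14 (1.96), Mmp2 (1.13) and Adam12 (2.91, with 35 positive and 4 negative cells at 50 CPM). Serpinf1 was among the lower ones (-1.71, but 0.76 on Pdgfra2).

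Contractile genes held more higher than lower members. Of 22 above the minimum, 8 (36.4%) were higher and 1 (4.55%) lower, beside 27.3% and 19.3% of all genes, and the median log2 ratio was 0.76; 13 were within 2-fold, and on both plates 4 were higher. Without the wells that carried pericyte markers, 6 of 21 were higher and 3 lower, with a median of 0.32. Mylk, myosin light chain kinase, reached 50 CPM in 39 positive and 6 negative cells (2.04), Cnn3, a calponin, in 50 and 16 (1.87), and Tpm1, a tropomyosin, in 48 and 14 (1.56). The defining smooth muscle genes Acta2 and Tagln were low on both sides, at 27.7 and 35.6 CPM and at 29.0 and 36.9 CPM. The summed smooth muscle markers, a set that includes Mylk, had a median of 418.5 CPM in positive and 30.69 CPM in negative cells. Of 6 of these markers above the minimum, 3 (50.0%) were higher and 1 (16.7%) lower in the summed counts. With both plates asked, none was higher and none lower.

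Energy metabolism and stress genes had no member that was at least 2-fold lower in the sum of all positive cells. Of 22 energy genes, 7 (31.8%) were higher and none lower, beside 27.3% and 19.3% of all genes. The higher share was thus near that of all genes. The higher ones included the glycolytic enzymes Hk2 (3.30), Pfkl (2.75) and Ldha (1.24) and the respiratory subunits Cox4i2 (5.10) and Uqcrc1 (1.73). Ndufa4l2 and Higd1b of this list are also pericyte markers. Without the wells that carried pericyte markers, 4 of 20 energy genes were higher and 1 lower, and Cox4i2 had a log2 ratio of 1.82. Of 26 immediate early and stress genes, 4 (15.4%) were higher and none lower, both below the shares of all genes. Without the wells that carried pericyte markers, 2 of 27 were higher and 2 lower. Socs3, a feedback inhibitor of cytokine signalling, was among the higher ones, with 38 positive and 9 negative cells at 50 CPM (3.65). Fos and Jun, which are induced in minutes by cell dissociation, were within 2-fold (0.76 and 0.40), as was the cytoskeletal gene Actb (2397 and 1897 CPM).

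Adhesion and immune lists held members on both sides. Of 37 adhesion, junction and guidance genes, 12 (32.4%) were higher and 10 (27.0%) lower, beside 27.3% and 19.3% of all genes. On both plates 9 were higher and 2 lower. Leaving out the wells that carried pericyte markers, 13 were higher and 9 lower. Itga8, the integrin alpha8 chain, reached 50 CPM in 44 positive and 5 negative cells (3.75), Cdh11, a mesenchymal cadherin, in 44 and 9 (2.49), Dpep1, a membrane dipeptidase, in 33 and 2 (4.08), and Unc5b, a netrin receptor, in 18 and 0 (6.36). All 18 cells with Unc5b carried both Moxd1 and Coch. Of 32 complement and immune genes, 8 (25.0%) were higher and 6 (18.8%) lower, close to the shares of all genes. Vcam1, an adhesion molecule for leukocytes, reached 50 CPM in 47 and 14 cells (2.43), and Ifitm1, an interferon-induced membrane protein, in 41 and 7 (2.78). C3, the central complement protein, had a log2 ratio of -6.74 that came from 2 negative cells at 50 CPM.

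Lipid and prostaglandin genes were higher in 13 of 34 cases (38.2%) and lower in 7 (20.6%) in the summed counts, beside 27.3% and 19.3% of all genes. With both plates asked 6 were higher and 6 lower, and the median was 0.50 on Pdgfra1 and -0.02 on Pdgfra2. The prostaglandin synthases Ptges (1.45) and Ptgs2 (2.09), the lipase Lpl (2.79) and the detoxifying Gsta4 (3.79, with 35 positive and 2 negative cells at 50 CPM) were higher. Ptgds, the prostaglandin receptor Ptgfr (-5.13, but 1.07 on Pdgfra2) and Apod, a lipocalin (-1.88), were lower. Apod was read at 50 CPM or more in all 28 negative cells and in 45 positive ones. Of 54 mesenchymal transcription factors, 13 (24.1%) were higher and 15 (27.8%) lower. With both plates asked 8 were higher and 3 lower, and the median was -0.30 in the sum and 0.52 on Pdgfra2. Beside Tcf21 and Foxf2, the higher ones included Alx4 (4.55), with 29 positive and 3 negative cells at 50 CPM, Nr2f1 (3.41) and Tbx2 (2.61). Foxc1 (-1.49), Tbx18 (-1.56), Zic1 (-1.25) and Zic4 (-1.48), factors known from meninges and vessel-associated mesenchyme, were lower, and each of these 4 reached 50 CPM in at least 12 negative cells. Zic4 was level on Pdgfra2 (0.09).

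**Figure D4:**
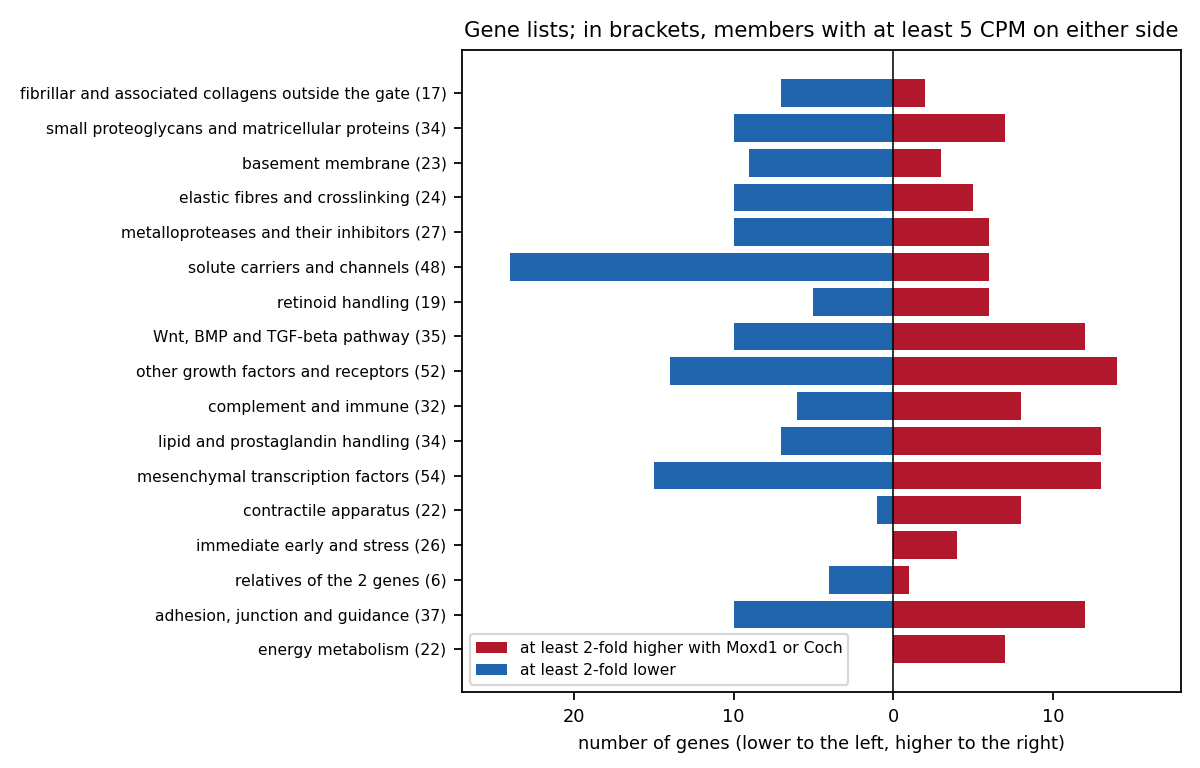
For 17 gene lists, the number of members at least 2-fold higher in positive cells (bars to the right) and at least 2-fold lower (bars to the left), with the number above 5 CPM in brackets. Solute carriers and channels have 24 lower and 6 higher members, and contractile genes have 1 lower and 8 higher.

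Genes related to the pair were mostly lower in positive cells. Pam, a copper-dependent monooxygenase that amidates peptides and is related to Moxd1, was lower in positive cells, with 16 positive and 22 negative cells at 50 CPM and a log2 ratio of -2.23. Vwa1 (-1.26) and Vit (-4.66, from 2 negative cells), which share the von Willebrand factor A domain with cochlin, were lower too. Crispld1 and Crispld2, which share the LCCL domain with it, had log2 ratios of 1.82 and -1.24. Of 6 list members above the minimum, 1 (16.7%) was higher and 4 (66.7%) were lower, beside 27.3% and 19.3% of all genes. The list also held Lgi1 and Lgals1, which share neither the family nor the domains named here.

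Positive cells were not alike. Counting how many of the 15 genes named as higher reached 50 CPM in a cell, positive cells had 0 to 14 (median 8) and negative cells 0 to 4 (median 0). Of the 15 genes named as lower, positive cells had 0 to 12 (median 2) and negative cells 2 to 15 (median 9). All 28 negative cells had more of the second set, and so did 8 of the 53 positive cells, while 44 had more of the first set and 1 had equal numbers. The counts were made in the cells from which the genes were chosen, so the separation of the sides follows in part from that choice.

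The exceptions lay mainly among cells with Moxd1 alone. Of the 39 cells with both genes, 37 had more of the first set and 1 more of the second. Of the 11 cells with Moxd1 alone, 5 had more of the first set and 6 more of the second, with medians of 3 and 6 genes. The positive cells nearest the threshold, at 58.99, 94.70 and 182.6 CPM, all had Moxd1 alone and more of the second set. In those cells a low level of Moxd1 and the lack of Coch cannot be told apart. Of the 3 cells with Coch alone, 2 had more of the first set and 1 more of the second. Cells with Moxd1 alone held 5 of the 8 positive cells with Slc6a13 at 50 CPM, whereas cells with both genes held 2. For Alpl the same numbers were 4 of 11 cells with Moxd1 alone and 32 of 39 with both genes. Median depth was 793553 reads with Moxd1 alone and 864783 with both genes.

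**Figure D5:**
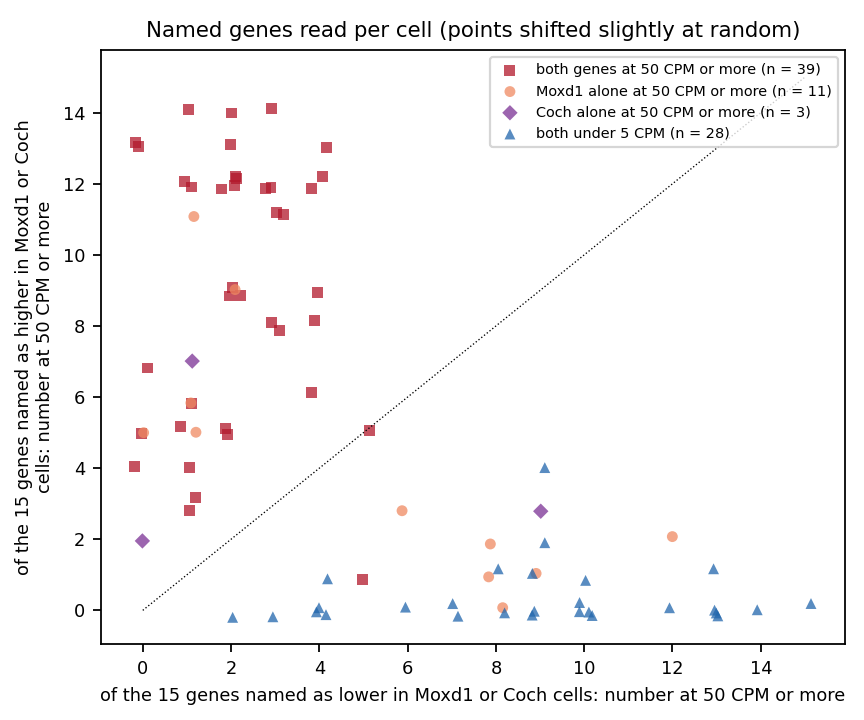
For each cell, how many of the 15 genes named as lower (horizontal) and of the 15 named as higher (vertical) reached 50 CPM; points are shifted slightly, and the dotted line marks equal numbers. Cells with both Moxd1 and Coch lie above the line in 37 of 39 cases, negative cells below it in 28 of 28, and cells with Moxd1 alone on either side.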

How the data were processed

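The authors deposited whole-number read counts for each gene in each cell, made without molecular tags, and a table of the same cells scaled by the authors to a near-constant total per cell, which is a score here. Per the submitters' processing notes, reads were aligned with STAR 2.4.2a to mm10; of the counter, annotation and filters, names were not given in the sources used here. All 3186 columns were matched to samples through the labels. Totals over the 81 cells ran from 101545 to 1606954 counts.

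Cells were chosen and divided by the stated CPM rule. The members and gene lists were chosen with earlier results of these data known. Counts were summed per side, scaled to CPM and compared with a pseudocount of 1 CPM and a minimum of 5 CPM on either side; at least 2-fold was the size reported, since 1 sample per side allows no test. The 15 largest ratios in each direction were named among genes with at least 50 CPM on the higher side, at 5 CPM or more in at least 50% of its cells and 2-fold different on both plates, leaving out the 6 genes of the rule, with up to 3 members at each end of each of 17 lists; other genes named were chosen after their values were seen. Marker sets were summed as CPM. Wells with markers of a second cell type, possible doublets, were kept and left out as an alternative; no doublet caller was run. Of the remaining marker sets, the medians of the summed CPM in positive and negative cells were 350.0 and 411.0 for astrocytes, 132.4 and 36.55 for neurons, 191.4 and 180.7 for choroid plexus and ependyma, 2912 and 4378 for arachnoid barrier and dura, 1.983 and 5.274 for oligodendrocyte progenitors and 0 and 0 for erythroid cells. For astrocytes and for choroid plexus and ependyma these medians were ordered the other way within each plate. Intervals are exact Poisson and binomial at 95%. Positions came from GENCODE for mm10. Python 3.11.15, numpy 2.4.6, pandas 2.3.3, scipy 1.17.1 and matplotlib 3.10.9 were used, and the ratio step was tested on simulated data. A few genes are not reported here by name.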

Additional observations from a re-analysis of the deposited data

How the results depend on the processing

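Each value was recomputed under 20 other settings, 18 planned and 2 chosen after seeing the data (both genes required of positive cells; every well with other cell type markers left out). The 30 genes described in full were chosen for 1 direction in the sum and on both plates. That they kept it without either plate and in the mean of the plate ratios was fixed by the choice. The other filters, the larger pseudocount and leaving out wells with oligodendrocyte markers, of which there were none, could not change a direction either. Under the remaining settings, which largely reuse the same cells, none of the 30 genes changed direction. Over all settings 72 of their values moved by more than the spread between plates. Of the 17 list medians, 8 took the other sign in at least 1 setting (proteoglycans and matricellular proteins, elastic fibres, metalloproteases, retinoid handling, complement, lipid handling, transcription factors, immediate early genes). Other growth factors, at -0.00, ran from -0.29 to 0.34. Solute carriers and channels ran from -1.47 to -0.56, collagens from -0.94 to -0.15, basement membrane from -1.16 to -0.34 and contractile genes from 0.32 to 1.25. With no read of either gene required, negative cells numbered 18 in place of 28. A filter of 20 CPM left 1986 higher genes in place of 3155. Without plate Pdgfra1, which left 11 positive and 15 negative cells, 3803 genes were lower in place of 2236. Over all settings the higher genes ran from 1986 to 4419 and the lower ones from 1550 to 3803.

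Of 111 named genes, 25 changed direction in at least 1 setting. Without plate Pdgfra1 the log2 ratios were Col6a2 0.11, Col12a1 0.23, Pcolce2 2.04, Thbs3 0.26, Adamts15 2.36, Serpinf1 0.76, Slc6a17 2.67, Sfrp4 6.02 and Ptgfr 1.07 where the sum had been lower, and Frem1 -1.76, Egflam -3.48, Emilin1 -0.47, Abcc9 -0.52, Slc12a7 -0.41, Hhip -0.52, Cfb -0.39, Cyp2s1 -0.41, Enpp6 -4.48, Fosl2 -0.89, Atf3 -1.22 and Cdh2 -0.41 where it had been higher. With no read of either gene in negative cells they were Egflam -0.05, Rdh5 2.45, C3 0.95, Tlr2 1.86 and Cldn1 2.03. Frem1 and Egflam were -0.41 and -0.23 as a mean of CPM over cells and with the authors' scaled values, and -0.46 and -0.25 after thinning, and Egflam was -0.75 as the mean of the plate ratios. Tlr2 was 2.34 without wells with pericyte markers, 2.17 without wells with microglia or macrophage markers and 2.50 without any well with other markers. The cause was not tested. Depth limits the 11 positive and 15 negative cells of Pdgfra2 most, with medians of 173163 and 166473 reads. No paired analysis was possible because the labels name no animal and the values come from no test.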

Other observations

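The 4 gated cells between the sides held 104383 to 533109 reads, 2 on each plate. They had 0 to 4 of the 15 genes named as higher and 2 to 14 of the 15 named as lower at 50 CPM or more, and 3 of the 4 had more of the second set.

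Microglia markers beyond the few wells described were split in the sums. Of 6 above the minimum, 5 were at least 2-fold lower in positive cells, among them Csf1r (4.66 against 75.2 CPM) and C1qb (4.02 against 92.7 CPM), each at 50 CPM in at most 5 negative cells, while Tmem119, often used as a microglia marker, was read at 221 CPM in positive cells and 142 CPM in negative cells and reached 50 CPM in 27 and 7 of them. Astrocyte markers lay on both sides in the summed counts. Of 7 above the minimum, 3 (42.9%) were at least 2-fold higher in positive cells and 2 (28.6%) lower, beside 27.3% and 19.3% of all genes. With both plates asked 3 were higher and none lower. The median of their log2 ratios was 0.01 in the sum, but 2.78 on Pdgfra1 and 2.85 on Pdgfra2. The median sum of the set was 350.0 CPM in positive and 411.0 CPM in negative cells. Within each plate it was higher in positive cells, at 270.1 and 181.4 CPM on Pdgfra1 and 911.5 and 510.6 CPM on Pdgfra2. The higher ones included S100b and Fgfr3, at 92.7 and 41.0 CPM in positive cells and 0.0713 and 0 CPM in negative cells. They reached 50 CPM in 15 and 10 positive cells, while Aqp4 had no read on either side. Clec14a, an endothelial surface gene, reached 50 CPM in 16 positive cells and had no read in negative cells, although Cldn5, which defines brain endothelium, was at 0.0490 CPM in the summed positive cells. The green fluorescent protein of the reporter was read at 58.3 CPM in positive and 136 CPM in negative cells.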
